A study of Mus musculus with 12 samples.

Results

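The regions bound by Scx in the developing mouse forelimb were taken from an anti-FLAG ChIP-seq experiment at E13.5, which comprised 3 ChIP samples and 3 input samples of a series of 12 samples. All 6 libraries came from homozygous *Scx* Flag/Flag embryos, in which CRISPR/Cas9 editing had added a FLAG epitope at the end of the endogenous Scx protein, and whose founders had been crossed to CD1 mice. Each ChIP replicate pooled 10 pairs of whole forelimbs, so the tissue was not sorted and held all cell types of the limb. Input is sheared chromatin that was not precipitated, and it served as the reference of each ChIP sample. The series holds no ChIP sample from untagged embryos, so signal of the antibody without the tag was not measured. All 12097 regions of the deposited peak table were used, as all of them come from this experiment. The RNA-seq samples of the series, 3 *Scx*-/- and 3 control littermates (the labels do not say which controls were wildtype or *Scx*+/-), were Scx-GFP+ cells sorted from E15.5 forelimbs by a transgenic reporter. From these only the authors' mean FPKM of the controls was used, an expression level scaled by gene length and library size. The peaks and the expression levels therefore differ in stage and in the cells sampled.

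Scx is a basic helix-loop-helix transcription factor of tendon progenitors and tendon cells. Such factors pair with a broadly expressed E-protein partner and contact the E-box, a short DNA motif of the letters CANNTG, in which the middle letters set the preference of each factor. Tendons consist mainly of type I collagen fibrils, and TGF-beta signaling is known to be needed for tendon formation in the mouse limb.

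Each region was 200 bp wide, and the deposited score was 0 for every region, so no peak could be ranked by height. The table gives 1 list for the 3 replicates together. The spread between replicates and the depth behind a peak are thus unknown, and shares are given below with 95% Wilson intervals that cover counting error only. Neither regions nor genes are replicates, and no p-value was computed. In the sorted cells, the tendon markers *Scx*, *Tnmd*, *Mkx*, *Fmod* and *Thbs4* had control means of 22.9 to 135 FPKM. Markers of macrophages (0.430 to 1.72 FPKM), red cells (0.196 to 1.61) and Schwann cells (0.519 to 1.42) were low, whereas those of muscle (3.24 to 29.0), endothelium (3.61 to 7.55), epidermis (0.873 to 7.88) and cartilage (0.761 to 78.3) were in part detected. The forelimb chromatin itself gives no such check.

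The core E-box of Scx has the letters CAGATG, which read as CATCTG on the other strand, or the letters CAGCTG, or else the letters CATATG. The study derived these letters from the same peaks, as their most enriched motif. The core is in capitals in the sequences of bound regions shown here, so that its place and number can be seen. They are reference sequences of the GRCm38 plus strand, from RefSeq. The first set holds the regions nearest to the start of 4 genes that the study displays with their ChIP signal. The *Htra3* region (a secreted serine protease) is at chr5:35642027-35642226, 37.7 kb downstream of its gene start in the annotation used here. The study lists its *Htra3* peaks farther downstream, counted from the start it used. The *Kera* region (keratocan, a small proteoglycan of collagen matrices) is at chr10:97611918-97612117 inside the gene. The *Tnmd* region (tenomodulin, a membrane protein of tendon cells) is at chrX:133830139-133830338, 20.7 kb upstream, and the *Zfp185* region (an actin-associated LIM protein) is at chrX:72986817-72987016, 422 bp upstream. All 4 lie outside annotated exons.
Htra3 peak: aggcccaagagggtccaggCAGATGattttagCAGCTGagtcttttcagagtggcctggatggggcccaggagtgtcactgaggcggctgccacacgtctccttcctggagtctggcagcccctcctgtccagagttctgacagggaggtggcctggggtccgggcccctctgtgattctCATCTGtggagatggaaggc
Kera peak: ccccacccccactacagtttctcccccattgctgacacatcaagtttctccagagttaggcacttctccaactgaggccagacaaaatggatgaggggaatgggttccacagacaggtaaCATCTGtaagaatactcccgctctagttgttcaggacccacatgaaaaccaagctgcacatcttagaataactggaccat
Tnmd peak: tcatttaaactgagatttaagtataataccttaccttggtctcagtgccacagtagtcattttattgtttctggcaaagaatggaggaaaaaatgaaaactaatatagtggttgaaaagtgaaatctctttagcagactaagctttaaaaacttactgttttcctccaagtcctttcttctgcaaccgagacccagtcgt
Zfp185 peak: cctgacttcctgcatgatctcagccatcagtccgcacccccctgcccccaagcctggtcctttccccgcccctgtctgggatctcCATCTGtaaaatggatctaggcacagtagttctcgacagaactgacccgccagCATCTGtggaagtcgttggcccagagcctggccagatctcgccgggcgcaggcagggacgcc

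These 4 regions differed in their cores. The *Htra3* region held 3 cores, the first pair of them with 13 bp from first base to first base, and the *Zfp185* region held 2. The *Kera* region held 1, and the *Tnmd* region held none.

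Scx peaks were spread over every autosome at similar density but were sparse on chromosome X. Chromosome X held 0.758 peaks per Mb of sequenced length (124 peaks), against 5.0 per Mb on the autosomes (11973 peaks), a 6.59-fold difference. Single autosomes ranged from 4.38 per Mb on chromosome 7 to 6.22 on chromosomes 9 and 11, so X lay far outside their range. No peak was listed on chromosome Y. Soft-masked repeats make up 46.8% of X and 30.6 to 35.8% of each autosome. Counted over sequence outside repeats, X held 1.42 peaks per Mb, against 7.51 on the autosomes, which was still a 5.27-fold difference.

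The same gap was seen at genes of like expression level. Among genes with a control mean of at least 5 FPKM, 19 of 282 on X had a peak center within 5 kb of the gene start (6.74%, 4.36 to 10.3%), against 2399 of 7823 on autosomes (30.7%, 29.7 to 31.7%). Their median levels were 14.9 FPKM on X and 14.3 FPKM on autosomes. Between 5 and 50 kb from the start, 12.8% of these X genes had a peak (9.37 to 17.2%), against 38.1% of the autosomal genes (37.1 to 39.2%). The lowest autosome, chromosome 7, was at 24.6% within 5 kb (21.3 to 28.4%). *Tnmd* and *Zfp185* are among the X genes with a peak within 50 kb. The regions in the table carry numbers that follow their order along the genome without a break in it. If these numbers count the merged regions before the authors' filter, which the sources do not state, 77.0% of 161 were kept on X (69.9 to 82.8%), against 65.9% of 18178 on autosomes (65.2 to 66.6%), so X was already sparse among the candidates. Peaks on X held a core within 25 bp of the center in 41.9% of cases (33.6 to 50.7%) and autosomal peaks in 33.9% (33.1 to 34.8%), intervals that overlap. Neither the labels nor the methods state the sex of the pooled embryos.

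**Figure D1:**
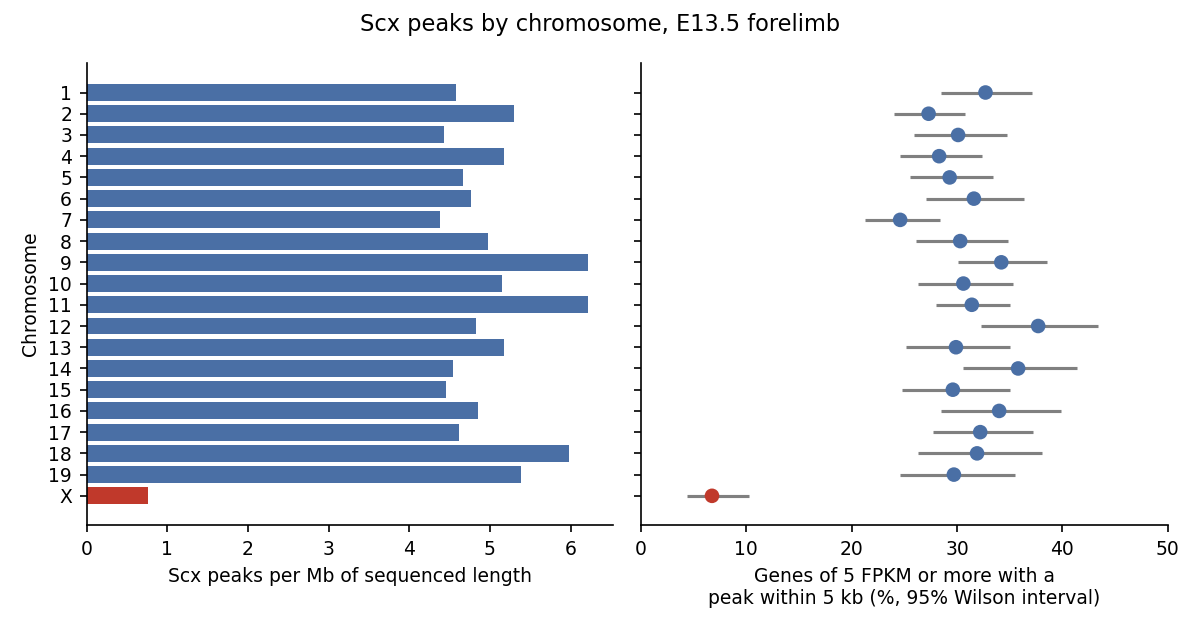
Left, Scx peaks per Mb of sequenced length on each chromosome. Right, share of genes with a control mean of at least 5 FPKM that had a peak center within 5 kb of the start, with 95% Wilson intervals. X (red) lies at 0.758 peaks per Mb and 6.74% of genes, and the autosomes (blue) lie between 4.38 and 6.22 peaks per Mb and between 24.6 and 37.7% of genes.

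Peaks were denser where more genes were expressed. In bins of 1 Mb, those with 20 or more genes of at least 5 FPKM held a mean of 8.72 peaks and none was empty. Bins with 1 to 4 such genes held a mean of 5.30 peaks, and bins with no such gene held 1.55, of which 48.8% were empty. Without X, the bins with no such gene held 1.71 peaks. In all, 469 of 2570 bins had no peak (18.2%), 112 of them on X, and the median was 4. A total of 370 bins (14.4%) had 10 or more peaks and together held 39.8% of all peaks.

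The densest bin, chr9:116000001-117000000, held 32 peaks and the start of a single protein-coding gene, *Tgfbr2*. It encodes the type II TGF-beta receptor and had a control mean of 52.3 FPKM. One peak lay 93 bp from the *Tgfbr2* start and 4 lay within 50 kb, but the median distance was 473 kb and the farthest 753 kb, with *Tgfbr2* the nearest start for 30 of the 32. The core was present in 23 of them (71.9%), against 60.3% of all peaks with a core anywhere in the 200 bp. The bin chr13:60000001-61000000 held 30 peaks, of which 22 lay within 200 kb of the start of *Gas1*, a hedgehog co-receptor gene at 65.4 FPKM. The bin chr1:162000001-163000000 held 27, none of which had its most highly expressed gene *Prrc2c* (118 FPKM) as the nearest start. At the other end, the longest stretch without a peak and without a long unsequenced run, chr5:54421408-64023153, spanned 9602 kb and held 7 coding genes. Of these *Pcdh7* and *Rell1* were at or above 5 FPKM. The next longest were both on X, with 9212 kb (22 coding genes, led by *Tbl1x* and *Pls3*) and 8611 kb (17 coding genes).

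Neighbouring peak centers lay at a median gap of 77.8 kb, well under the mean of 210.1 kb. The lower and upper quartiles were 18.6 and 215 kb. A total of 1134 gaps (9.39%) were at most 1 kb, and 461 pairs of neighbours overlapped. The median was 279 kb on X and 77.4 kb on the autosomes, where single chromosomes ranged from 63.4 kb (chromosome 13) to 96.7 kb (chromosome 3).

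In all, 4065 peaks (33.6%, 32.8 to 34.5%) had a neighbour within 10 kb. They formed 1788 groups, of which 396 had at least 3 peaks and 17 at least 5. The largest group, chr18:80617406-80646661, held 7 peaks over 29.3 kb within *Nfatc1*, a calcium-regulated transcription factor gene of the Nfat family at 14.2 FPKM, 66.5 to 95.6 kb downstream of its start. In 5 of them the core was present (71.4%, against 60.3% of all peaks). A group of 5 over 23.1 kb lay 4.62 to 27.5 kb from the start of *Spon2*, a secreted matrix protein gene at 12.1 FPKM. A group of 4 over 21.6 kb had *Dapk1*, a cell death kinase gene at 8.41 FPKM, as the nearest start, at least 179.6 kb away. A group of 6 lay 14.5 to 27.7 kb upstream of *Hhat*, which encodes the acyltransferase that attaches palmitate to hedgehog ligands (4.61 FPKM).

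**Figure D2:**
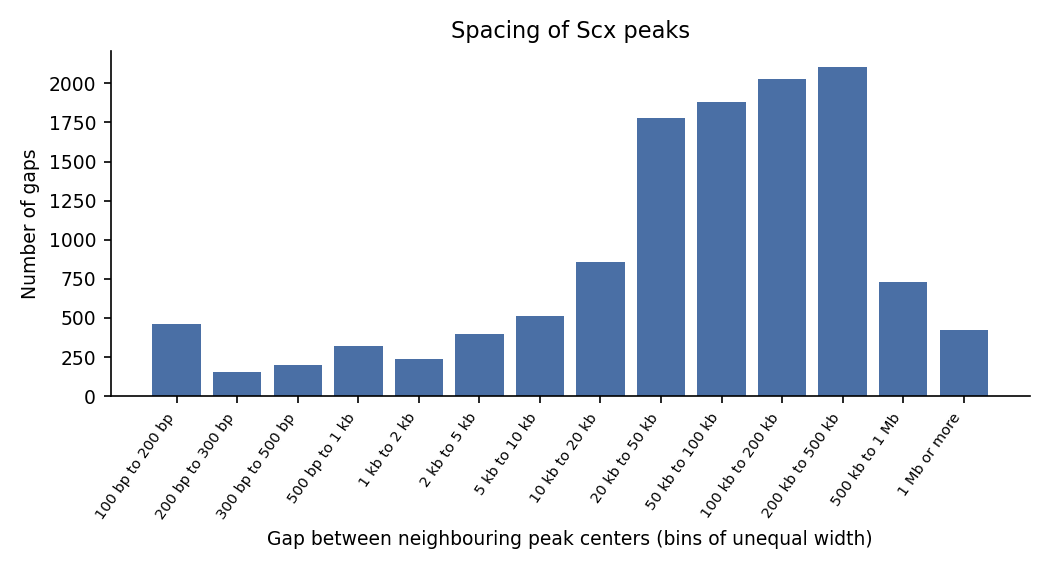
Number of gaps between neighbouring Scx peak centers in bins of distance, which are of unequal width. The 461 gaps under 200 bp are overlapping regions. The largest bins are 100 to 200 kb (2029 gaps) and 200 to 500 kb (2103 gaps), and 422 gaps are 1 Mb or longer.

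Few peak centers fell in repeats. The center base was soft-masked in 6.57% of peaks (6.14 to 7.03%), against 24.8% (24.3 to 25.4%) of windows of the same width 2 kb to each side. Peaks were more often like CpG islands, defined here as a GC content of at least 50% with observed over expected CpG of at least 0.6. This held for 26.9% of peaks (26.1 to 27.7%) and for 1.29% of the windows (1.15 to 1.44%).

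Around gene starts, the centers were sharply concentrated and lay mostly downstream. With 1 start for each of 21701 protein-coding genes, 2864 peaks (23.7%, 22.9 to 24.4%) were within 1 kb of a start, against 2.05% of the side windows (1.88 to 2.24%). Of the 3525 peaks within 5 kb, 2719 were downstream (77.1%, 75.7 to 78.5%). The 500 bp downstream of the start held 1866 peaks and the 500 bp upstream held 495. In steps of 100 bp, the highest count was 619 between 100 and 200 bp downstream.

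This skew was mainly seen in CpG-island-like peaks. Of the CpG-island-like peaks within 5 kb of a start, 83.2% were downstream (81.8 to 84.5%, 2795 peaks), against 54.0% of the other peaks (50.3 to 57.6%, 730 peaks). In the 500 bp downstream of the start, 94.9% of peaks were CpG-island-like, and between 2000 and 2500 bp upstream it was 3.85%. The split by CpG-island-like peaks was not repeated with the starts of all coding transcripts.

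**Figure D3:**
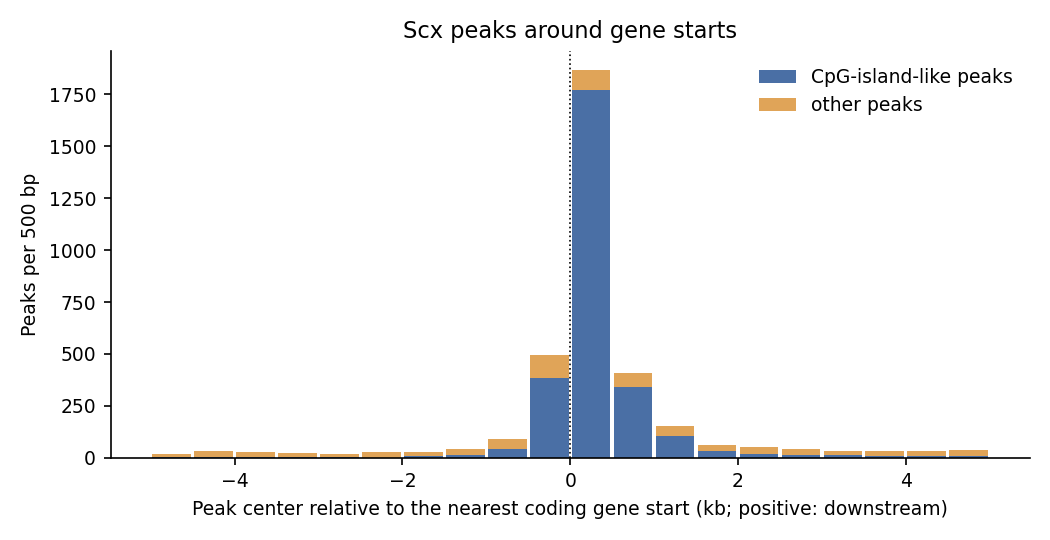
Scx peaks per 500 bp by the distance of the center to the nearest protein-coding gene start, upstream to the left and downstream to the right, split into CpG-island-like and other peaks. The bar for the first 500 bp downstream (1866 peaks) exceeds that for the first 500 bp upstream (495 peaks), and 1771 of its peaks are CpG-island-like.

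An excess of the core E-box in the peaks was given in advance, as the study derived the core from them. The core sat at the peak centers. Its frequency per 10 bp reached 8.58% at the center of the peaks and was 2.41% at both edges, whereas in the side windows it stayed between 1.38 and 1.76%. Other E-boxes showed a much weaker central increase, with 4.36% at the center of the peaks and 3.51 and 3.65% at the edges, while the windows stayed between 3.79 and 4.23%. Within 25 bp of the center, a core was present in 34.0% of peaks (33.2 to 34.9%), against 7.67% of the windows (7.34 to 8.01%).

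The forms of the E-box differed. Within 25 bp of the center, CAGCTG was present in 12.6% of peaks, against 2.27% of windows, a ratio of 5.54. The ratio was 4.89 for CAGATG (20.5% of peaks, against 4.2% of windows) and 2.19 for CATATG (3.03%, against 1.38%). Outside the core, CACCTG, which reads as CAGGTG on the other strand, had a ratio of 1.62 (6.19%, against 3.83%) and CACGTG one of 1.46 (0.860%, against 0.587%). The remaining 5 forms had ratios of 0.715 to 1.09.

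Peaks at CpG-island-like gene starts did not show this pattern. Among CpG-island-like peaks within 1 kb of a start, 8.83% had a core within 25 bp of the center (7.78 to 9.99%, 2538 peaks), against 7.40% of CpG-island-like side windows (4.98 to 10.9%, 311 windows), intervals that overlap. Over the whole 200 bp the shares were 24.2% (22.6 to 25.9%) and 23.5% (19.1 to 28.5%). Other peaks within 1 kb had a core within 25 bp in 37.7% of cases (32.6 to 43.1%, 326 peaks). Peaks 5 to 50 kb away had one in 42.2% (40.4 to 44.0%), and peaks farther than 50 kb in 41.1% (39.8 to 42.4%).

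Cores often came in more than a single copy. At least 3 were present in 5.56% of peaks (5.17 to 5.99%), against 0.537% of windows (0.453 to 0.638%), and exactly 2 in 17.1%, against 3.61%. Neighbouring cores were most often 11 bp (90 pairs) or 13 bp (106 pairs) from first base to first base, which leaves 5 or 7 bases between them. The next highest count up to 40 bp was 75 pairs at 19 bp. At 8, 9, 10, 12, 14, 15 and 16 bp the peaks held 36 to 59 pairs, with a median of 45. The 24194 side windows held 14 pairs at 11 bp and 16 pairs at 13 bp. Of the 106 pairs at 13 bp, 43 were a pair of CAGATG cores read on the same strand. Only 5 of the 106 were in peaks with the center in a repeat. The *Htra3* region shown above has this spacing, and so has a region in *Col27a1*, a fibril-forming collagen gene, 15.3 kb downstream of its start at chr4:63229235-63229434.
Col27a1 peak: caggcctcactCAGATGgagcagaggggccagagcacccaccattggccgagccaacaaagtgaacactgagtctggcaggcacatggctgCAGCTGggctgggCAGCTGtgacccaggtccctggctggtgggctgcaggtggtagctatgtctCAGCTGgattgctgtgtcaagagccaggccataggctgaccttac

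**Figure D4:**
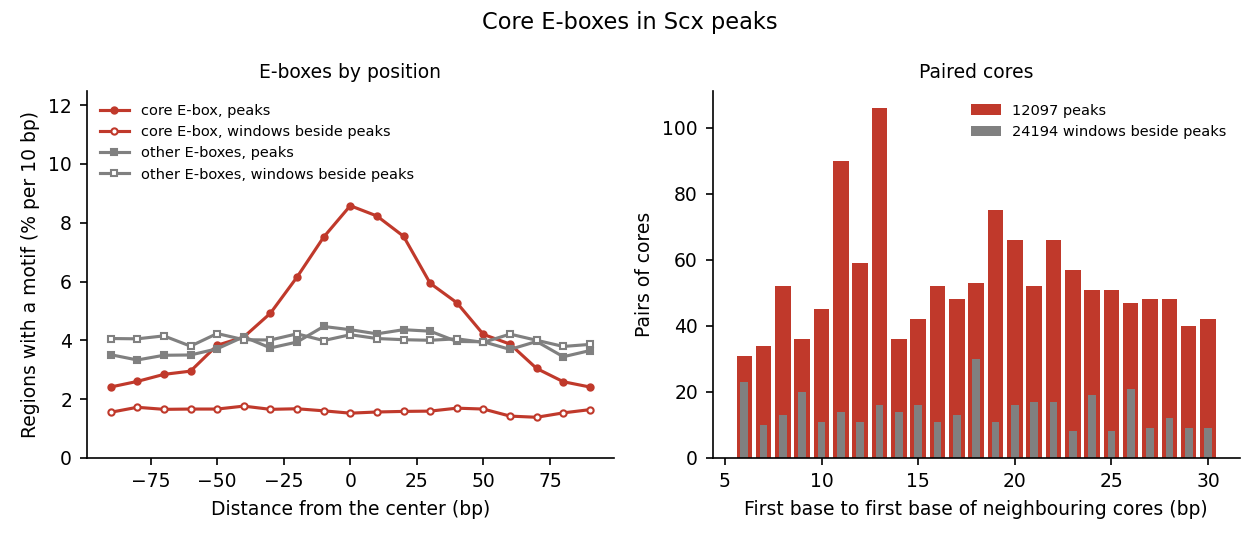
Left, share of regions with an E-box in each 10 bp step from the center, for the core forms and for all other forms, in peaks (filled) and in the windows beside them (open). The core reaches 8.58% at the peak center and stays at or under 1.76% in the windows. Right, number of neighbouring core pairs by their distance, with 90 pairs at 11 bp and 106 at 13 bp in the peaks.

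The core was also often joined to TGGAAA, the motif of Nfat factors, so that both shared the letters TG. Read towards the shared letters, 602 places in the peaks had this arrangement, while each other offset of 6 to 20 bp held at most 58, with a median of 23. Side windows also had most at this offset (91 places), where only 4 letters beyond the core are needed. At least 1 joined motif was present in 4.84% of peaks (4.47 to 5.23%), against 0.376% of windows (0.306 to 0.462%). Without regions that held it, TGGAAA was still present in 26.7% of all peaks (25.9 to 27.5%), against 18.2% of windows (17.8 to 18.7%). The study found TGGAAA in these same peaks as the second most enriched motif, so an excess of TGGAAA was given in advance.

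The joined motif depended on the letters of the core. Of all CATCTG ends in peaks, 5.06% ran on as CATCTGGAAA (295 places), against 0.707% in windows. For the other strand of the same core, which gives CAGATGGAAA, the shares were 1.92 and 0.631%. CATATGGAAA had 4.2%, against 0.871%, and CAGCTGGAAA 1.43%, against 0.338%. It was rare at gene starts, with 0.663% of peaks within 1 kb (0.425 to 1.03%) and 6.55% of peaks over 50 kb away (5.93 to 7.22%). A region within *Tgfbr2*, 36.5 kb downstream of its start, at chr9:116138729-116138928, held 1 joined motif and 3 further cores. A region 33.7 kb upstream of *Thbs4*, a tendon matrix gene, at chr13:92828464-92828663, is nearer to the start of *Mtx3*, and a region 20.1 kb downstream of *Id3*, which encodes an inhibitor of helix-loop-helix factors, at chr4:136163447-136163646, is nearer to *E2f2*. The joined letters are all in capitals, and on the plus strand they read either as above or as their reverse complement.
Tgfbr2 peak: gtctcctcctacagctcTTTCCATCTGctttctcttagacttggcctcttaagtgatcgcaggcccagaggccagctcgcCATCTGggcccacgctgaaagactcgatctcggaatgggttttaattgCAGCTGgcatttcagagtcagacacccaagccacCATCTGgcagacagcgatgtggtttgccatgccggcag
Thbs4 peak: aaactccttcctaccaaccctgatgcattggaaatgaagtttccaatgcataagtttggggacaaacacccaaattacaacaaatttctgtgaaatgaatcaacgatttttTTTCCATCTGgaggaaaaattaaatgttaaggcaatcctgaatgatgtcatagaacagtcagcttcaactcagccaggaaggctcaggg
Id3 peak: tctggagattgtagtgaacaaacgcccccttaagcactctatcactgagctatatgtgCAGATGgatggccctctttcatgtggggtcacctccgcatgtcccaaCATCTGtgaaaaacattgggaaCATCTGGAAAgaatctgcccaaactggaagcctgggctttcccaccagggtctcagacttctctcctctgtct

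The share of genes with a nearby Scx peak increased with expression in Scx-GFP+ cells and levelled off at the top. Of 14658 genes matched to the RNA-seq table, 3050 (20.8%) had a peak center within 5 kb of the start. The share was 3.70% (2.36 to 5.78%) of genes under 0.1 FPKM, 6.26% (5.38 to 7.28%) at 0.1 to 1, 12.8% (11.8 to 14%) at 1 to 5, 26.1% (25 to 27.3%) at 5 to 20 and 36.6% (34.7 to 38.5%) at 20 to 100 FPKM. At 100 FPKM and over it was 35.3% (30.8 to 40.1%), which did not differ from the class before it beyond the intervals. Coding genes not listed in the table had a peak within 5 kb in 2.75% of cases (2.40 to 3.16%).

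The increase was seen at both kinds of gene start. A CpG-island-like start was found at 31.7% of genes under 0.1 FPKM and at 76.9 and 78.8% of genes at 5 to 20 and 20 to 100 FPKM. Among genes with such a start, 7.79% (4.51 to 13.1%) under 0.1 FPKM and 39.3% (37.1 to 41.4%) at 20 to 100 FPKM had a peak within 5 kb. Among genes with other starts, these shares were 1.81% (0.831 to 3.89%) and 26.5% (23.0 to 30.4%). Split by the peaks instead, the share of genes with a CpG-island-like peak within 5 kb was 1.65% under 0.1 FPKM, 32.9% at 20 to 100 FPKM and 28.9% at 100 FPKM and over. For other peaks the share was 2.06% (1.12 to 3.75%) under 0.1 FPKM and 8.96% (6.54 to 12.1%) at 100 FPKM and over.

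Away from the start the slope was shallower. A peak 5 to 50 kb from the start was found at 35.6% of matched genes, with 28.0% (24.2 to 32.1%) under 0.1 FPKM, 35.4% (34.1 to 36.7%) at 5 to 20 and 49.3% (44.4 to 54.1%) at 100 FPKM and over. The median number of other coding starts within 50 kb was 1 in every class but the highest, where it was 2, and its part in the shares was not tested. When each distal peak was counted for its nearest start only, the shares at the ends of the scale were 8.64 and 19.2%. The median distance from the gene start to the nearest peak was 92.1 kb under 0.1 FPKM, 44.8 kb at 5 to 20 FPKM and 19.3 kb at 100 FPKM and over. Seen from the peaks, the nearest gene was at or above 5 FPKM for 81.1% of peaks within 1 kb of a start (79.7 to 82.5%), 55.2% of those 5 to 50 kb away (53.4 to 57.0%) and 56.4% of those 100 to 500 kb away (54.7 to 58.1%), against 37.3% of all coding genes. A peak within 1 kb at a gene under 0.1 FPKM was found in 15 cases, and in 4 of them another start of at least 5 FPKM lay within 2 kb.

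**Figure D5:**
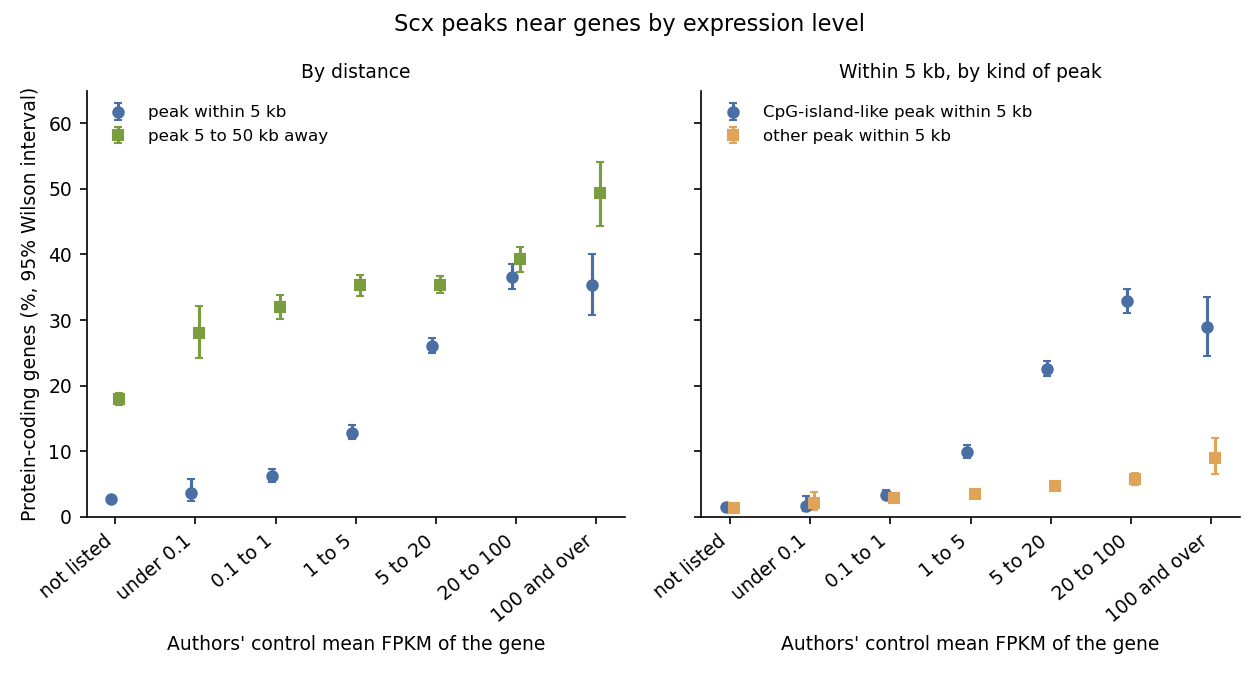
Share of protein-coding genes with an Scx peak, by the authors' control mean FPKM (low to high, genes not listed at the left), with 95% Wilson intervals. Left, a peak center within 5 kb of the start reaches 36.6% at 20 to 100 FPKM and 35.3% at 100 FPKM and over, and one 5 to 50 kb away reaches 49.3%. Right, within 5 kb, CpG-island-like peaks reach 32.9% and other peaks 8.96%.

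Among the most highly expressed genes, some carried a peak at the start and others had none within 50 kb. Over all matched genes, 17.2% had a peak within 1 kb and 48.7% within 50 kb. Of genes with a peak within 1 kb, the highest level was that of *Col3a1*, which encodes type III collagen, with 1094 FPKM and a center 63 bp downstream of the start. *Mfap4*, encoding a microfibril-associated protein (739 FPKM), had centers 99 and 630 bp upstream. *Fstl1*, a secreted follistatin-like gene (702 FPKM), had a center 321 bp downstream and 6 peaks within 50 kb. *Lgals1*, encoding galectin-1 (634 FPKM), had centers 123 and 1612 bp downstream, and *Ifitm2*, an interferon-induced membrane protein gene (637 FPKM), had 1 at 484 bp upstream. The chaperone gene *Hsp90ab1* (1022 FPKM) and the ribosomal protein genes *Rpl32*, *Rps23* and *Rpl14* (608 to 1085 FPKM) each had a center 104 to 397 bp from the start. Of the regions nearest to these gene starts, that of *Ifitm2*, at chr7:140956371-140956570, is the only one clear of annotated exons and is shown with its 1 core.
Ifitm2 peak: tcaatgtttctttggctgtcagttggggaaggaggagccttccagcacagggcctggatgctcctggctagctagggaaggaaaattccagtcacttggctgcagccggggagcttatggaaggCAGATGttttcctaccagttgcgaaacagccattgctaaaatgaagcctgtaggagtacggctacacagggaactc

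Genes with no peak within 50 kb reached the same levels. The growth factor gene *Igf2*, which at 2845 FPKM had the highest control mean of all matched genes, had its nearest peak 72.9 kb away. *Actb*, encoding beta-actin (1023 FPKM), and *Npm1*, encoding nucleophosmin (899.6 FPKM), had theirs at 51.7 and 50.6 kb, just outside the limit. The ribosomal protein genes *Rps4x*, *Rps27rt*, *Rplp2*, *Rpl13*, *Rplp1* and *Rpl4* (863 to 1308 FPKM) had the nearest peak 60.1 to 127 kb away. Ribosomal protein genes have many near-identical copies in the genome, so their levels are uncertain.

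Ribosomal protein genes had a peak near the start less often than other genes of the top class. Of 73 such genes at 100 FPKM or more, with a median of 473 FPKM, 14 had a peak within 5 kb (19.2%, 11.8 to 29.7%), against 128 of the 329 other genes of that class (38.9%, 33.8 to 44.3%), whose median was 152 FPKM. Between 5 and 50 kb the shares were 49.3% (38.2 to 60.5%) and 49.2% (43.9 to 54.6%). Proteasome genes, with a median of 56.6 FPKM, had a peak within 5 kb in 6 of 31 cases (19.4%). This share was close to the 20.8% of all matched genes and under the 36.6% of genes at 20 to 100 FPKM. The most highly expressed of the 6 were *Psma6*, *Psmc1* (64.9 FPKM), *Psmd14* (52.3 FPKM) and *Psmc2* (45.5 FPKM).

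TGF-beta and BMP pathway genes had peaks close to their starts more often than the 20.8% of all matched genes, in 18 of 27 cases (66.7%), at a median level of 17.5 FPKM. The receptors *Bmpr1a* (59.4 FPKM, 910 bp from the start), *Tgfbr2* (52.3 FPKM, 93 bp) and *Bmpr2* (42.6 FPKM, 623 bp) and *Ltbp1* (46.5 FPKM, 535 bp), which encodes a protein that tethers latent TGF-beta to the matrix, were the highest of these. In the Nfat family 4 of 5 genes had a peak within 5 kb, the highest being *Nfatc3* (33.9 FPKM), *Nfatc4* (19.3 FPKM) with 4 peaks, *Nfatc1* and *Nfatc2* (3.88 FPKM). Of the dimerization partners and inhibitors of bHLH factors, 6 of 9 genes had one. The E-protein gene *Tcf12* (75.5 FPKM) had 3 peaks within 1 kb, *Id3* (63.4 FPKM) had 2 within 5 kb and 6 within 50 kb, *Twist1* (44.8 FPKM) had 2 within 1 kb, and the nearest peak of *Id1* (38.9 FPKM) was 3166 bp from the start. The Nfat and bHLH lists had median levels of 18.6 and 38.9 FPKM. Genes at 5 to 20 FPKM had a peak within 5 kb in 26.1% of cases and genes at 20 to 100 FPKM in 36.6%. No interval was computed for these short lists, so an excess over genes of like level was not tested.

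Fibril-forming collagen genes and those that fold and crosslink collagen had a peak within 5 kb more often than the 20.8% of all matched genes. All 44 collagen genes together did not, with 9 (20.5%, 11.2 to 34.5%). The fibril-forming and the folding and crosslinking lists had median levels of 87.8 and 41.2 FPKM. Genes at 20 to 100 FPKM had a peak within 5 kb in 36.6% of cases. No interval was computed for these short lists, so an excess over genes of like level was not tested. Of 11 fibril-forming collagen genes 6 had a peak within 5 kb (54.5%) and 9 within 50 kb, but only *Col3a1* had it within 1 kb (9.09% of the list, against 17.2% of all matched genes). *Col1a1*, encoding the main chain of tendon collagen (1333 FPKM), had 4 peaks, all upstream, at 2646, 7106, 19565 and 44883 bp. *Col5a1* (157 FPKM), whose product nucleates fibrils, had 8 within 50 kb, the nearest 2355 bp downstream, and *Col2a1* (78.3 FPKM), the cartilage collagen gene, had 1 at 3266 bp. Of 22 folding and crosslinking genes 11 had a peak within 5 kb. These included *Serpinh1* (274 FPKM), the collagen chaperone, 7 bp from the start, *Pcolce* (112 FPKM), an enhancer of procollagen cleavage, at 2376 bp, *Crtap* (61.7 FPKM), a subunit of the prolyl 3-hydroxylase complex, at 266 bp and *Fkbp10* (48.6 FPKM), a chaperone of the endoplasmic reticulum, at 1065 bp.

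Tendon genes were bound mostly at a distance. Of 24 tendon factors and markers 7 had a peak within 5 kb (29.2%), against 20.8% of all matched genes. Within 1 kb 4 had one (16.7%), against 17.2%, and within 50 kb 21 had one (87.5%), against 48.7% of all matched genes. The median level of the list was 55.5 FPKM. Genes at 20 to 100 FPKM had shares of 36.6% within 5 kb, 31.9% within 1 kb and 62.0% within 50 kb. Against these genes the list was lower within 5 and 1 kb and higher within 50 kb, with no interval computed for the list. The small proteoglycan genes *Lum* (366 FPKM, 689 bp), *Aspn* (104 FPKM, 1354 bp) and *Fmod* (84.7 FPKM, 25 bp upstream) and *Scx* itself (88.6 FPKM) were the most highly expressed with a peak within 5 kb. *Kera* (243 FPKM) had 5 peaks within 50 kb, the nearest 5139 bp downstream. *Ssc5d* (43.4 FPKM), a scavenger receptor family gene, had its only one 775 bp upstream. Some genes of this list are among those the study reported for a changed level in the RNA-seq samples and an associated Scx peak of this experiment. Their peaks were thus part of how they were picked, so the list is no independent sample of levels or of peaks.

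The cytoskeletal, patterning, cartilage and muscle lists ran from 13.6 to 29.6% within 5 kb, against 20.8% of all matched genes. Their median levels were 46.4, 10.9, 6.91 and 8.33 FPKM. Genes at 20 to 100 FPKM were at 36.6% and genes at 5 to 20 FPKM at 26.1%, so none of these lists exceeded genes of like level. A peak was found at 8 of 27 actin cytoskeleton genes (29.6%), led by *Tpm4* (285 FPKM), *Actg1* (176 FPKM, 2 peaks), *Cnn3* (105 FPKM) and *Zyx* (32.3 FPKM, 2 peaks), all within 1 kb. Limb patterning genes had one in 6 of 34 cases, among them *Twist1*, *Gli3* (3 peaks within 1 kb) and *Shox2* (27.2 FPKM). Of 20 cartilage genes 4 had one, namely *Col2a1*, *Hapln1* (10.5 FPKM), *Matn4* (5.0 FPKM) and *Sox5* (3.39 FPKM). Of 22 skeletal muscle genes 3 had one, namely the troponin genes *Tnni1* (24.2 FPKM) and *Tnni2* (7.01 FPKM) and the creatine kinase gene *Ckm* (0.840 FPKM).

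None of 13 red cell, 14 macrophage, 14 epidermal and 14 liver genes had a peak within 5 kb. Most of these genes were low or not listed (12 of the liver genes), and genes of like level seldom had one, with 2.75% of genes not listed, 6.26% at 0.1 to 1 FPKM and 12.8% at 1 to 5 FPKM, so lists of this size do not set them apart. Their highest members included *Hbb-bs* (114 FPKM) and *Hbb-bt* (34.7 FPKM), which encode beta-globins, *Tyrobp* (4.80 FPKM) and *Fcer1g* (3.64 FPKM), *Krt10* (11.8 FPKM) and *Krt5* (7.88 FPKM), and *Alb* (0.275 FPKM) and *Fgg* (0.143 FPKM). Median levels were 1.64 FPKM for red cell, 1.69 for macrophage and 3.18 for epidermal genes. Within 50 kb, 7 of the 14 macrophage genes and 6 of the 14 epidermal genes had a peak, against 42.8% of all genes at 1 to 5 FPKM. Of the 13 red cell and the 14 liver genes 2 each had one. Of 12 endothelial genes *Erg* (10.1 FPKM) alone had a peak within 5 kb, and of 12 Schwann and neural genes *Erbb3* (1.90 FPKM) and *Snap25* (0.506 FPKM) had one.

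Some genes were surrounded by many peaks. The cytoskeletal gene *Gas2* (50.5 FPKM) and *Fancf* (4.69 FPKM), a DNA repair gene that starts beside it, shared 9 peaks within 50 kb. *Cep41* (11.2 FPKM), a centrosomal gene, had 9, and its imprinted neighbour *Mest* (1188 FPKM) had 7, all upstream, from 8316 to 48180 bp. All 7 peaks of *Mest* are among the 9 of *Cep41*. *Hhat* had 9, 6 of them upstream, and *Fibin* (50.6 FPKM), a secreted protein gene first described in fin bud, had 7, with 2 within 1 kb. *Tas1r1* (0.176 FPKM), a taste receptor gene, had 8 within 50 kb, the nearest 29.3 kb away, and 6 other coding starts lay within 50 kb of its own.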

How the data were processed

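The authors aligned ChIP-seq reads to mm10 with STAR 2.7.4, brought libraries to equal depth, removed duplicates, called peaks per ChIP sample against input with HOMER 4.11, merged them over replicates and kept those past a fold and an FDR threshold of an edgeR test. The deposited table gives positions and a score, which was 0 throughout. The authors' mean FPKM was computed from featureCounts counts on mm10. The sources used here do not name their annotation. The deposited log2 fold changes, p-values and FDR of *Scx*-/- against control were not used. There were 0 columns of per-sample values without a sample.

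Peak centers were placed against GENCODE release M21, with 1 start per protein-coding gene (its 5′ end) and coordinates counted from 1. The RNA-seq table holds 15671 genes, of which 14658 (93.5%) were matched to a coding start, 189 of them through an older symbol in RefSeq. Repeats are the soft-masked bases of RefSeq GRCm38.p6. Windows of equal width were taken 2 kb to each side of each peak (24194 in all, 0.624% of which overlapped a peak). E-boxes and TGGAAA were searched on both strands, and a place in overlapping regions was counted once in the counts of pairs and joined motifs. Computations used Python 3.11.15, numpy 2.4.6, pandas 2.3.3 and scipy 1.17.1 and were tested on simulated data.

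The members and lists were chosen with earlier results of these data known. Named genes were *Scx* and the 6 genes the study shows with tracks, the 10 of highest control mean with a peak within 1 kb and the 10 with none within 50 kb, the 8 with most peaks within 50 kb, and up to 4 bound members of each list (the 2 of highest level where none was bound). Some genes and 1 sequence that this rule names are not reported here. Positions were named for the 3 densest bins, the 3 longest stretches and the longest groups. *Spon2*, the group at *Hhat*, the paired and joined motifs and the regions shown for them were chosen after values were seen. Alternatives were other distances, start sets, window distances, peak sets and levels.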

Additional observations from a re-analysis of the deposited data

How the results depend on the processing

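Of 62 alternatives, 25 were labelled as leaving the value the same and 37 as moving it. The label rests on the interval of the value, except for the gene lists. Their counts have no interval, so their labels rest on the counts alone. Within 1 kb in place of 5 kb, 2 lists changed sides of the share of all matched genes (17.2% within 1 kb, 20.8% within 5 kb). Fibril-forming collagens were at 9.09% within 1 kb and 54.5% within 5 kb, and tendon genes at 16.7 and 29.2%. Counted over sequence outside repeats, peaks per Mb were 1.42 on X and 7.51 on autosomes, while the autosomes were at 4.86 over the whole length and at 4.5 with peaks within 1 kb merged. With any masked base counted, 49.0% of peaks and 72.5% of windows touched a repeat. Windows 10 kb away were at 28.6% for repeats, 1.5% for gene starts and 8.36% for the core. The median gap was 84.3 kb with overlapping peaks merged and 95.1 kb with those within 1 kb merged, and a neighbour was found for 27.0% of peaks within 5 kb and for 28.4% with overlapping peaks merged. With the starts of all coding transcripts, 29.1% of peaks and 5.78% of windows lay within 1 kb, the downstream share was 65% and the median distance of genes under 0.1 FPKM was 80.4 kb. With the starts of all annotated genes the shares were 26.8% of peaks and 4.70% of windows. The downstream share within 1 kb was 79.4%. Within 50 bp of the center the core was in 48.7% of peaks and 15% of windows, and 42.4% of peaks had it within 25 bp without CpG-island-like regions. Within 5 kb but without CpG-island-like peaks, the share of genes was 8.96% at 100 FPKM and over and 2.06% under 0.1 FPKM, and within 1 kb it was 29.4% at 100 FPKM and over. For distal peaks the shares at 100 FPKM and over and under 0.1 FPKM were 19.2 and 8.64% with the nearest start only and 28.6 and 17.9% without CpG-island-like peaks, and 23.7% of genes under 0.1 FPKM had one with levels averaged over both genotypes. Within 1 kb, 4 tendon, 1 fibril collagen, 7 collagen folding, 2 limb patterning, 3 E-protein, Id and Twist and 2 cartilage genes had a peak. The cause of these shifts was not tested beyond what each setting counts. No paired analysis was possible because the peak table holds 1 list for all replicates and only pooled expression levels were used. For the same reason no replicate could be left out. The depth behind a peak is unknown, and the intervals cover counting error only.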

Other observations

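Other kinds of annotated genes differed in how often they had a peak within 5 kb, against 15% of protein-coding genes. The share was 33.2% of lncRNA genes with a bidirectional promoter (26.9 to 40.1%), 15.2% of processed transcripts (12.9 to 17.9%), 11.9% of antisense RNA genes (10.8 to 13.2%), 8.14% of lincRNA genes (7.44 to 8.91%), 7.74% of miRNA genes (6.70 to 8.93%) and 2.84% of processed pseudogenes (2.53 to 3.19%). Of those over 5 kb from a coding start, 6.37% of lincRNA genes and 3.90% of miRNA genes had a peak.

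Gene families, looked at after the lists, differed widely. Of 1133 olfactory receptor genes 2 had a peak within 5 kb (0.177%, 0.0484 to 0.641%), and of 327 vomeronasal receptor genes none had one (0 to 1.16%). Zinc finger genes named Zfp had one in 89 of 394 cases (22.6%, 18.7 to 27.0%), close to the share of matched genes. Clustered histone genes had one in 21 of 67 (31.3%, 21.5 to 43.2%). Genes of a cluster lie close together and can share a peak. Of 67 protocadherin genes 3 had one (4.48%, 1.53 to 12.4%), although 25 were at or above 5 FPKM. Of the 6 genes of latent TGF-beta binding proteins and fibrillins, which form the microfibrils that hold latent TGF-beta, 5 had one.

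The rows of the peak table are not in genome order, and what orders them is not stated. Over all peaks a core anywhere in the 200 bp was present in 60.3% (59.5 to 61.2%). In the first 1210 rows this share was 69.3% (66.7 to 71.9%). In the lowest of 10 equal parts it was 53.7% (50.9 to 56.5%), and in the last 1209 rows 61.2% (58.4 to 63.9%). CpG-island-like regions made up 12.6, 36.7 and 16.7% of these parts.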
